A study of Mus musculus with 19 samples.

Results

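The genes described here are 33 enzymes and carriers of fatty acid oxidation, measured by RNA sequencing of mouse heart among 25239 gene symbols. They were taken by symbol from a list of the pathway, by a rule that uses no measured value. The list itself was chosen with earlier results of these data known, so it was not blind to them. All 33 were found in the table and all 33 passed the filter on low counts. For the description they were divided by step into 4 genes of uptake and activation, 3 thioesterases, 5 genes of carnitine transport and its control, 13 genes of the mitochondrial oxidation cycle, 3 genes of electron transfer and 5 genes that act in peroxisomes. The study compared hearts of Mcm8 knockout and wild-type mice in a model of Kawasaki disease, a childhood inflammation of blood vessels. The vasculitis is brought on by LCWE, a cell wall extract made from Lactobacillus casei, and PBS is the vehicle. There were 5 libraries from Mcm8 knockout hearts after LCWE, 6 from wild-type hearts after LCWE, 3 from Mcm8 knockout hearts after PBS and 5 from wild-type hearts after PBS. The labels give no age, sex, strain, dose or time after injection, and do not say how or in which cells Mcm8, a DNA helicase gene, was removed. Nor do they say that the samples come from separate animals, so p-values here measure only the spread between these samples, which may be technical.

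The heart burns fatty acids as its main fuel. A fatty acid that enters the cardiomyocyte is bound to a carrier protein, joined to coenzyme A, passed into the mitochondrion as a carnitine ester and then shortened step by step to acetyl-CoA. Each turn of the cycle passes through a dehydrogenase, a hydratase, a second dehydrogenase and a thiolase, and the electrons of the first dehydrogenase reach the respiratory chain through the electron transfer flavoprotein and its dehydrogenase. Peroxisomes shorten the chains that mitochondria handle poorly. Many of these genes are known targets of the nuclear receptor PPAR-alpha and of the estrogen-related receptors.

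Total counts ranged from 11853233 to 16145911 per library, so that counting error is small for most of these genes. The lowest counts were those of Acad10, with 67 to 197 per library, and Cpt1b, with 62 to 241. Values below are in CPM (counts scaled to library size, with TMM factors) and fold changes are log2 values with their standard error (SE). Mcm8 itself averaged 0.392 ± 0.271 CPM in knockout LCWE hearts (SD, n = 5), 4.09 ± 0.996 CPM in wild-type LCWE hearts (n = 6), 0.760 ± 0.147 CPM in knockout PBS hearts (n = 3) and 3.66 ± 0.659 CPM in wild-type PBS hearts (n = 5). No knockout library reached a wild-type one. The heart label was met by the cardiomyocyte gene Myh6, which lay between 37077 and 61448 CPM in the 19 libraries. Some libraries stood apart. Myh7, the slow myosin heavy chain that rises in strained adult mouse hearts, lay at 16702 and 20424 CPM in knockout LCWE replicates 4 and 5 and at 14213 and 13251 CPM in knockout PBS replicates 1 and 3, against at most 3216 CPM in every other library. The 3 knockout PBS libraries carry sample numbers from 3 different ranges (under 100, 100 to under 200, and 200 and above). What those numbers stand for is not given in the sources used here.

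Per unit of transcript length, the carrier Fabp3, the heart fatty acid binding protein, was far above the rest. Its level in wild-type PBS hearts was 14811 ± 1483 TPM (CPM-like values corrected for transcript length; SD, n = 5), and over the 19 libraries it ranked 4 among all genes. Next came Etfb, a subunit of the electron transfer flavoprotein, at 2036 ± 142 TPM, and Acaa2, a thiolase of the mitochondrial cycle, at 1988 ± 167 TPM. These neighbours did not differ beyond their spread. Acadl, the long-chain acyl-CoA dehydrogenase, followed at 1651 ± 122 TPM, then Acadvl, its relative for very long chains, at 1478 ± 86.6 TPM and Etfa, the partner subunit of Etfb, at 1081 ± 53.99 TPM. Of the thioesterases, which split acyl-CoA back to free acid, Acot13 was highest at 1059 ± 44.6 TPM and Acot2 lay at 197 ± 27.6 TPM. Of the carnitine genes, Crat, which moves acetyl groups on and off carnitine, lay at 428 ± 37.9 TPM and Cpt2, the inner membrane carnitine palmitoyltransferase, at 336 ± 26.1 TPM. Acss1, the mitochondrial acetyl-CoA synthetase and the second in the uptake and activation group, lay at 430 ± 50.8 TPM. The peroxisomal group was low throughout, led by the bifunctional enzyme Hsd17b4 at 106.6 ± 7.52 TPM and the isomerase Eci2 at 93.6 ± 7.28 TPM. At the bottom were Cpt1b, the muscle form of the outer membrane carnitine palmitoyltransferase, at 12.6 ± 2.49 TPM and Acad10, a little-studied acyl-CoA dehydrogenase, at 5.92 ± 0.869 TPM. Lengths were those of all annotated exons joined, which understates a gene with long rare exons, and the Cpt1b counts are limited further as described at the end.

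**Figure D1:**
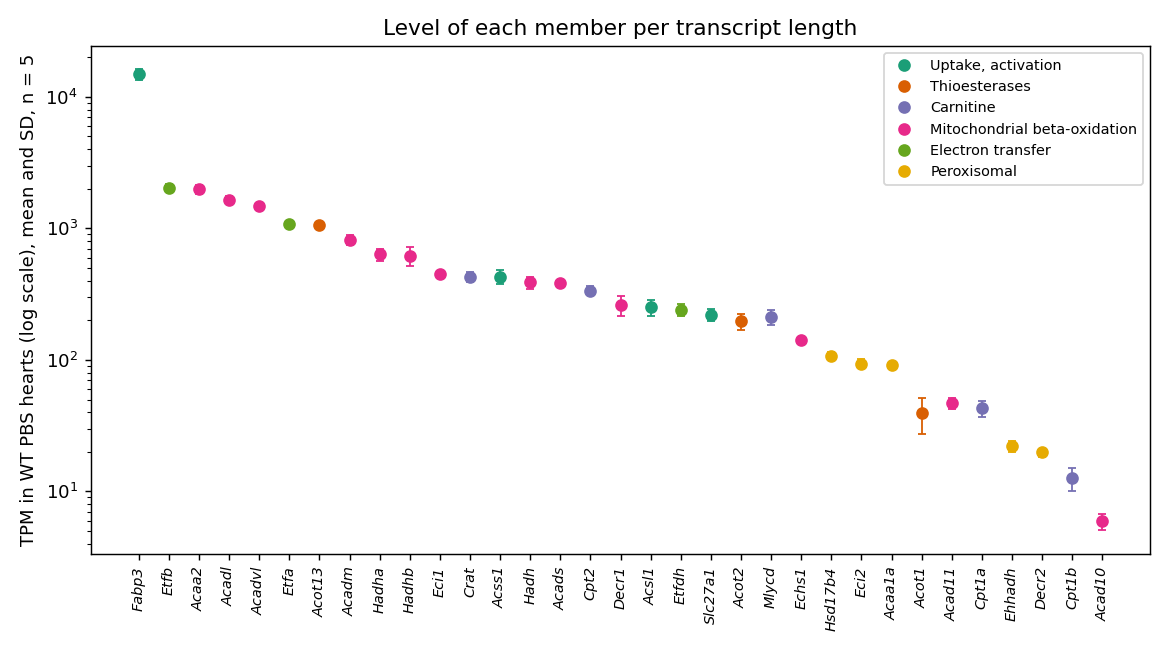
Level of each of the 33 genes in wild-type PBS hearts, as TPM on a log axis, ordered by the mean over all libraries. Points are means and bars SD of 5 libraries, coloured by step. Fabp3 stands at 14811 TPM, Etfb and Acaa2 follow at 2036 and 1988 TPM, and Acad10 is lowest at 5.92 TPM.

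In Mcm8 knockout hearts, 9 of the 33 genes fell after LCWE and 0 rose (edgeR's quasi-likelihood test, adjusted p under 0.05 over 14301 genes). That is 27.3% of the genes of the pathway, against 2.08% of all tested genes that fell and 0.818% that rose. The count depends on the fit, since it was 0 with only the groups compared, 1 with limma-voom, 3 with library totals or no filter and 15 with DESeq2. For these other fits the matching shares of all tested genes are not given. The 9 were Fabp3 from uptake, Acadm, Hadha, Acaa2, Eci1 and Decr1 from the mitochondrial cycle, Etfa and Etfdh from electron transfer, and Eci2 from the peroxisomal group. Of the 33, 31 had a fold below 0 and 23 an unadjusted p under 0.05. Of all 14301 tested genes, 7025 had a fold below 0 and 3347 an unadjusted p under 0.05. The median log2 fold was -0.49 in the pathway and 0.01 over all tested genes. In 6 genes, 18.2% of the pathway against 3.7% of all tested genes, every knockout LCWE library lay below every knockout PBS library. These 6 were Cpt1b, Acadm, Acads, Hadh, Etfa and Etfdh. The reverse held for 0 of the 33, against 4.91% of all tested genes. The members were chosen with earlier results of these data known, and in heart tissue fewer cells of a type and less RNA per cell cannot be told apart.

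Uptake and activation contributed Fabp3, which carries fatty acids through the cytosol of the cardiomyocyte. It lay at 2968, 2532, 3678, 5400 and 2445 CPM in knockout LCWE hearts, against 6890, 4440 and 6978 CPM in knockout PBS hearts. Its log2 fold was -0.84 (SE 0.215, adjusted p = 0.0426). LCWE replicate 4 was higher than PBS replicate 2, and the other 4 LCWE libraries lay below all 3 PBS libraries. The other genes of the step did not pass. Slc27a1, a fatty acid transport protein of the plasma membrane, had a log2 fold of -0.62, Acsl1, the main heart acyl-CoA synthetase of long chains, -0.43, and Acss1 -0.33.

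In the mitochondrial cycle 5 of 13 genes fell, all 13 folds were below 0 and the median was -0.58. Acadm, the medium-chain acyl-CoA dehydrogenase, lay at 759, 674, 901, 962 and 867 CPM in knockout LCWE hearts, against 1349, 1042 and 1400 CPM in knockout PBS hearts. The groups did not overlap, and its log2 fold was -0.60 (SE 0.143, adjusted p = 0.0357). Hadha, the alpha subunit of the trifunctional protein that runs the later steps on long chains, lay at 1350, 1161, 1622, 2121 and 1499 CPM in knockout LCWE hearts, against 2797, 1895 and 3161 CPM in knockout PBS hearts. Its log2 fold was -0.76 (SE 0.195, adjusted p = 0.0437), and the only overlap was that LCWE replicate 4 exceeded PBS replicate 2. Its partner Hadhb, the beta subunit, lay at 868, 783, 1172, 1441 and 975 CPM in knockout LCWE hearts, against 1635, 1419 and 2178 CPM in knockout PBS hearts. Hadhb had a log2 fold of -0.74 and did not pass.

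Acaa2 lay at 787, 643, 959, 1086 and 862 CPM in knockout LCWE hearts, against 1419, 1007 and 1467 CPM in knockout PBS hearts. The log2 fold was -0.58 (SE 0.150, adjusted p = 0.0437), with the same single crossing of LCWE replicate 4 over PBS replicate 2. Eci1 and Decr1 prepare unsaturated fatty acids for the cycle, Eci1 as an enoyl-CoA isomerase and Decr1 as a dienoyl-CoA reductase. Eci1 lay at 270, 237, 296, 311 and 290 CPM in knockout LCWE hearts, against 457, 302 and 429 CPM in knockout PBS hearts. Decr1 lay at 257, 203, 306, 446 and 294 CPM in knockout LCWE hearts, against 576, 365 and 645 CPM in knockout PBS hearts. The log2 fold of Eci1 was -0.50 (SE 0.124, adjusted p = 0.0416) and that of Decr1 was -0.81 (SE 0.212, adjusted p = 0.0444). In both, LCWE replicate 4 was the highest LCWE library and PBS replicate 2 the lowest PBS library, and these 2 crossed. Just missing the threshold were Acadl at -0.71 (adjusted p = 0.0522) and Acadvl, the very-long-chain dehydrogenase, at -0.50 (adjusted p = 0.0563). The rest of the cycle did not pass either, with -0.63 for Acad10, -0.40 for Acad11, -0.37 for Acads, the short-chain dehydrogenase, and -0.35 for Hadh, the hydroxyacyl-CoA dehydrogenase of shorter chains.

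Electron transfer contributed 2 of its 3 genes. Etfa lay at 523, 454, 558, 506 and 567 CPM in knockout LCWE hearts, against 846, 610 and 748 CPM in knockout PBS hearts. Etfdh, which hands the electrons on to ubiquinone, lay at 454, 357, 541, 517 and 395 CPM in knockout LCWE hearts, against 849, 590 and 924 CPM in knockout PBS hearts. Neither gene overlapped between the groups. The log2 fold was -0.49 for Etfa (SE 0.121, adjusted p = 0.0378) and -0.80 for Etfdh (SE 0.167, adjusted p = 0.0301), the smallest p of the 33. Etfb, whose protein pairs with that of Etfa, lay at 696, 696, 783, 767 and 748 CPM in knockout LCWE hearts, against 809, 683 and 728 CPM in knockout PBS hearts. The groups overlapped in full.

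Of the 6 steps the peroxisomal group had the median log2 fold nearest to 0, -0.09. Eci2, an isomerase found in peroxisomes and mitochondria, was the one that fell. It lay at 144, 126, 187, 170 and 142 CPM in knockout LCWE hearts, against 279, 162 and 238 CPM in knockout PBS hearts, a log2 fold of -0.56 (SE 0.148, adjusted p = 0.0455). Its PBS replicate 2 lay within the LCWE range. The only folds above 0 among the 33 were those of Acaa1a, a peroxisomal thiolase, at 0.25 and Decr2, the peroxisomal dienoyl-CoA reductase, at 0.34, and neither passed. Ehhadh, the peroxisomal bifunctional enzyme, was uneven, with 9.94, 35.0 and 20.8 CPM in the 3 knockout PBS libraries and a log2 fold of -0.12, and Hsd17b4 had a log2 fold of -0.09.

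No carnitine gene and no thioesterase passed in knockout hearts. Cpt1b lay at 13.6, 10.6, 10.5, 14.9 and 8.26 CPM in knockout LCWE hearts, against 16.45, 15.63 and 15.97 CPM in knockout PBS hearts. These did not overlap, with a log2 fold of -0.47. Cpt2 came closest to the threshold at -0.58 (adjusted p = 0.0579), with 177, 156.2, 210, 206 and 151 CPM in knockout LCWE hearts, against 199, 318 and 292 CPM in knockout PBS hearts. The liver-type Cpt1a, which catalyses the same reaction as Cpt1b, had a fold of -0.27, Crat -0.34 and Mlycd, which degrades the Cpt1 inhibitor malonyl-CoA, -0.46. Both related thioesterases varied widely between libraries. The cytosolic Acot1 lay at 36.8, 11.3, 57.2, 87.0 and 12.9 CPM in knockout LCWE hearts, against 212, 46.4 and 179 CPM in knockout PBS hearts. Acot2 lay at 130, 47.8, 169, 158 and 59.0 CPM in knockout LCWE hearts, against 180, 133 and 342 CPM in knockout PBS hearts. Their log2 folds of -1.83 (SE 0.611) and -0.95 (SE 0.386) did not pass, nor did Acot13 at -0.03.

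**Figure D2:**
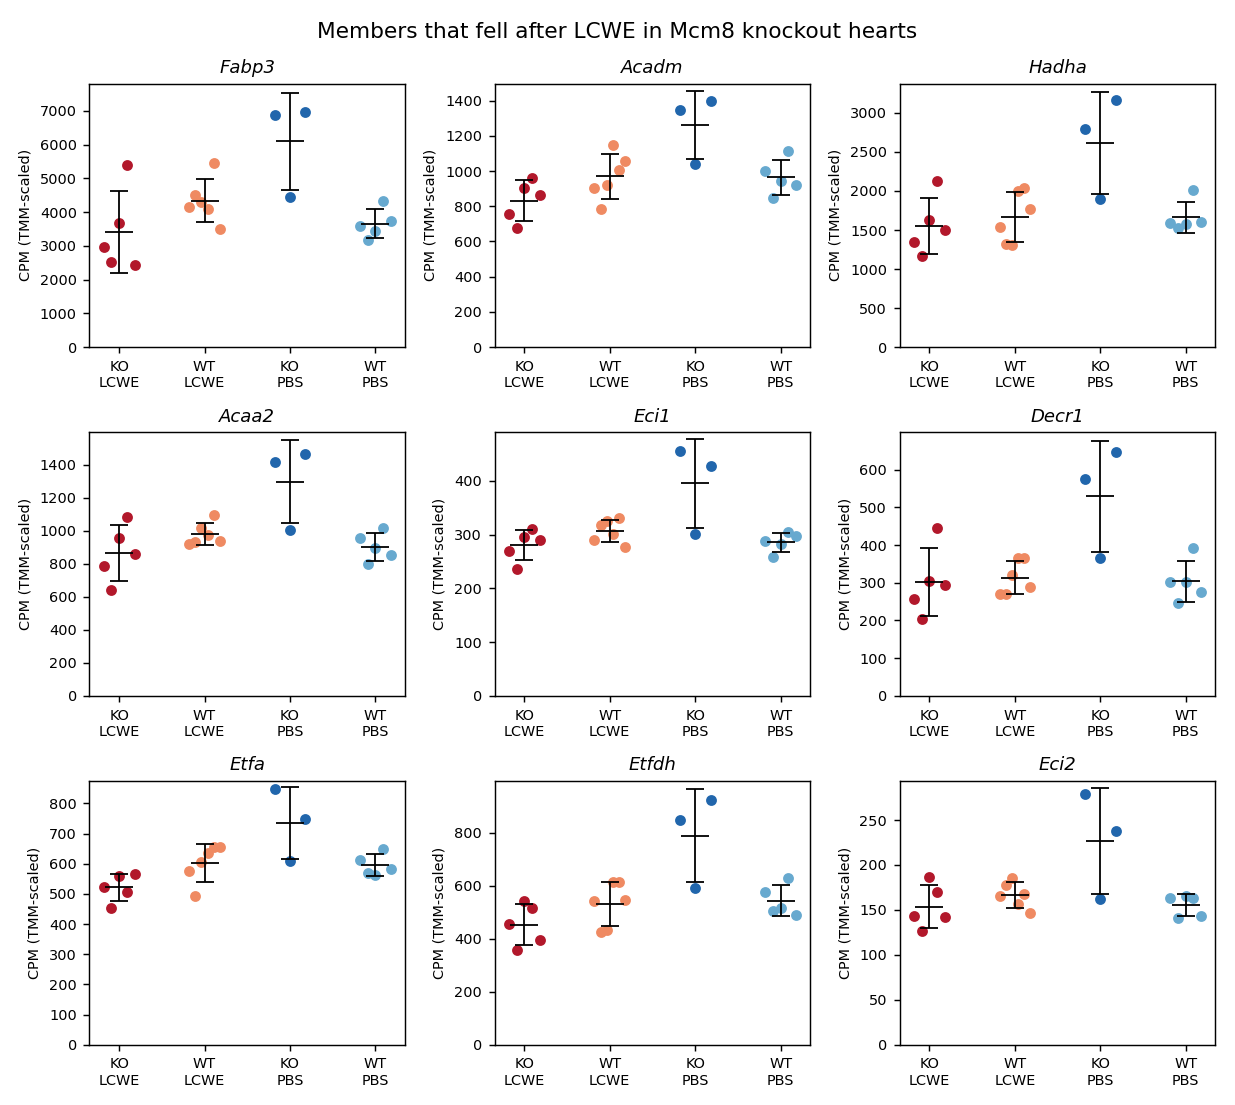
The 9 genes that fell after LCWE in Mcm8 knockout hearts, in CPM from 0, with each library as a point and mean and SD as bars for the 4 groups (n = 5, 6, 3 and 5). In each panel 2 of the 3 knockout PBS libraries lie above the wild-type groups, while knockout PBS replicate 2 lies close to them, for example at 365 CPM for Decr1.

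Knockout PBS replicates 1 and 3 were the 2 highest of the 19 libraries in 16 of the 33 genes, against 10.7% of all tested genes. Knockout PBS replicate 1 was the highest library in 9 of the 33, against 21.3% of all tested genes. It was the lowest in 2 of the 33, against 21.4%, so it was often extreme outside the pathway as well. Knockout PBS replicate 3 was the highest library in 13 of the 33, against 8.65% of all tested genes. At the other end, knockout LCWE replicate 2 was the lowest library in 17 of the 33, against 5.59% of all tested genes. Leaving out knockout PBS replicate 1 or 3, or knockout LCWE replicate 1 or 5, brought the count of called genes to 0. Leaving out knockout PBS replicate 2 brought it to 17 (15 lower, and Acaa1a and Decr2 higher). The matching shares of all tested genes are not given here, so a gain in the pathway is not set apart from a general one. Without knockout PBS replicate 1 the log2 folds of the 9 genes ran from -0.75 to -0.38, and without replicate 3 from -0.73 to -0.43. With all libraries they ran from -0.84 to -0.49, and the 9 were picked in that fit, which shares most libraries. Over all 33 the medians were -0.45 and -0.46. Without replicate 1, Acot13, Etfb and Decr2 turned sign, and without replicate 3, Hsd17b4 did. The count of called genes was 1 without knockout LCWE replicate 3, and 2 without knockout LCWE replicate 2 or wild-type PBS replicate 1, 2 or 3. It was 3 without wild-type LCWE replicate 1, 4 without wild-type PBS replicate 4 or 5, and 5 without wild-type LCWE replicate 4 or 6. Across all 19 removals Etfdh was called in 15 and Acadm in 14, but Eci2 in 3, Acaa2 and Decr1 in 5, Fabp3 and Hadha in 6, Eci1 in 8 and Etfa in 9. Among sample numbers from 100 to under 200, where 3 knockout LCWE libraries faced knockout PBS replicate 1 alone, the median log2 fold was -0.56 and 16 genes fell while 2 rose. Among numbers under 100, where 2 faced replicate 2 alone, the median was -0.14 and 0 genes passed. There 8 genes with folds below 0 in the full fit stood above 0, among them Decr1 at 0.02, Acadl at 0.22 and Cpt1a at 0.36, and Acaa1a and Decr2 stood below 0. In these fits the lone library was taken to vary like the others. With the number range as a covariate 0 genes passed, at a median of -0.47. Y-linked genes were high in knockout LCWE replicates 1, 3 and 5, wild-type LCWE replicate 1 and knockout PBS replicate 1 and low in the other libraries. They were thus uneven over the groups. Their mean log2 CPM was at most -1.43 in wild-type PBS hearts, against 4.88 in knockout PBS replicate 1. Sex itself is not in the labels. With the Y-linked level as a covariate 10 genes passed.

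**Figure D3:**
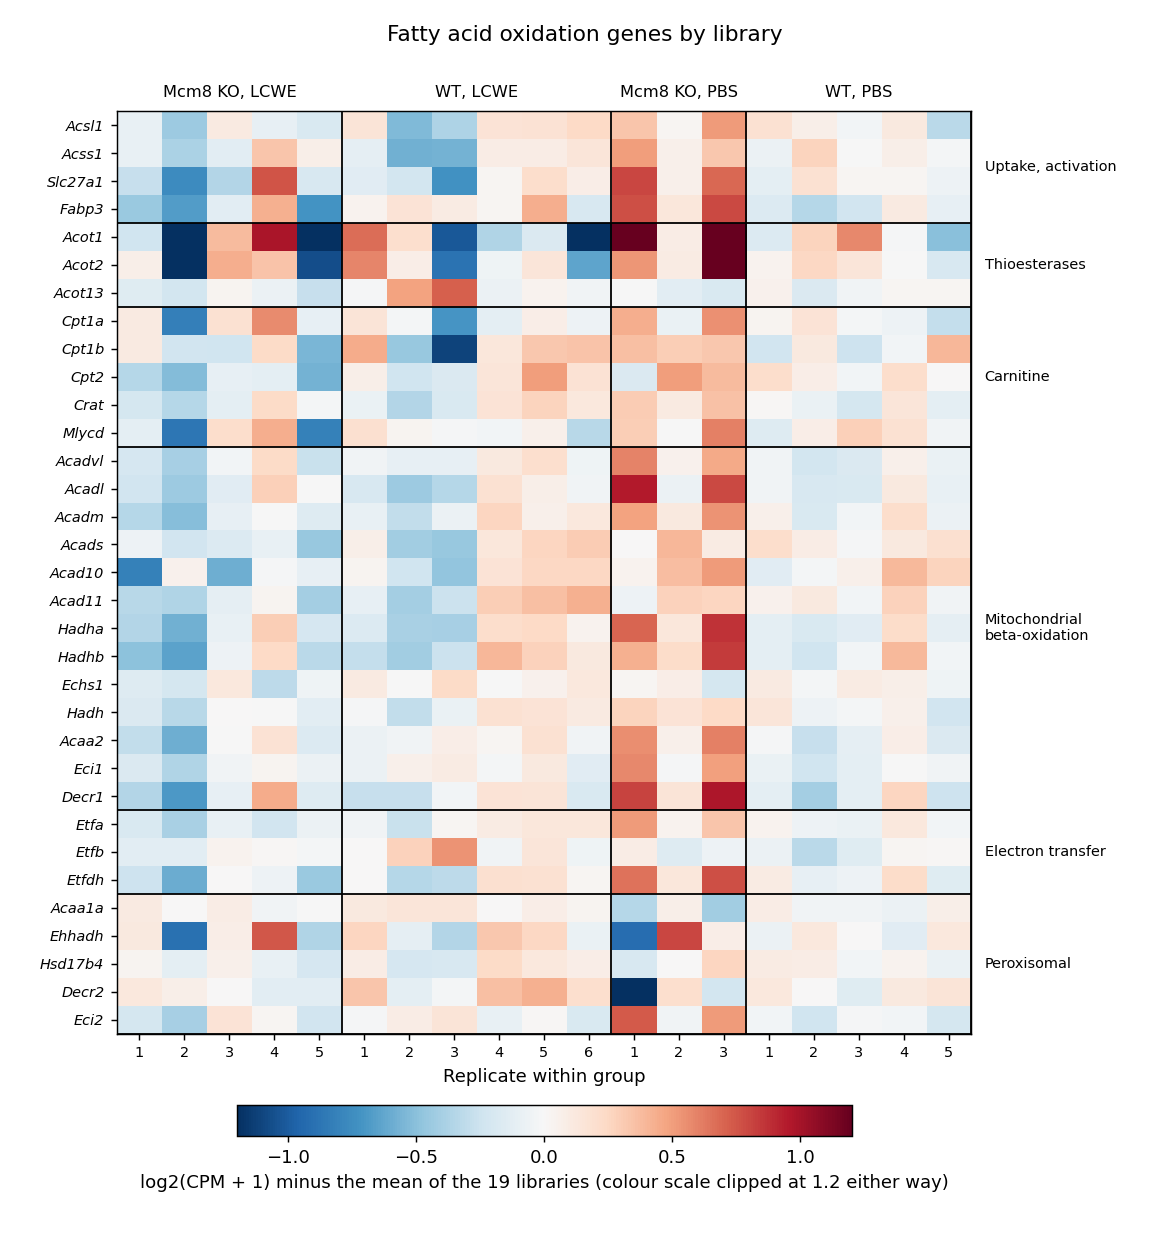
Each of the 33 genes (rows, by step) in each of the 19 libraries (columns, by group), as log2(CPM + 1) minus the gene's mean over the libraries, with red above and blue below. Knockout PBS replicates 1 and 3 are red in most mitochondrial rows and knockout LCWE replicate 2 is blue, while the peroxisomal rows Acaa1a and Decr2 run lower in knockout PBS replicates 1 and 3.

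Other measures also changed after LCWE in knockout hearts. Of 12 macrophage markers, all 12 had folds above 0 after LCWE in knockout hearts and 4 rose (33.3%, against 0.818% of all tested genes), namely Ptprc, Itgam, Mrc1 and Tyrobp. The markers summed to between 340 and 904 CPM in knockout LCWE hearts, 260 and 607 CPM in wild-type LCWE hearts, 133 and 340 CPM in knockout PBS hearts, and 229 and 300 CPM in wild-type PBS hearts. Within knockout PBS hearts they summed to 163 and 133 CPM in replicates 1 and 3 and to 340 CPM in replicate 2. Of 4 neutrophil markers 0 passed, but all 4 had an unadjusted p under 0.05 and their median log2 fold was 3.98, with sums of 4.87 to 88.0 CPM in knockout LCWE hearts, against 2.66 to 3.77 CPM in knockout PBS hearts. Of 5 T and NK cell markers 0 passed, 3 had an unadjusted p under 0.05, and the median log2 fold was 1.76. In wild-type hearts the median of the 33 genes was 0.01, yet all markers of these immune lists had folds above 0 after LCWE. The medians there were 0.73 for macrophage, 2.58 for neutrophil and 2.01 for T and NK markers. Of these markers 9, 3 and 4 had an unadjusted p under 0.05, against 892 of all 14301 tested genes, and 0 passed. Of 7 fibroblast markers 1, Dpt, rose after LCWE in knockout hearts (14.3%, against 0.818% of all tested genes). There 5 had an unadjusted p under 0.05, and the median log2 fold was 0.91. Between knockout and wild type under PBS 0 passed, 5 had an unadjusted p under 0.05, and the median was -0.79. The markers summed to between 1155 and 2093 CPM in knockout LCWE hearts and 1038 and 2122 CPM in wild-type LCWE hearts. In PBS hearts the sums were 926 to 1279 CPM for the knockout and 1007 to 1640 CPM for wild type. The part of these cells, and of the high Myh7, in the change of the oxidation genes was not tested. Of 16 cardiomyocyte markers 1, Actc1, rose and 0 fell after LCWE in knockout hearts, with a median log2 fold of 0.08. The markers of fat, a tissue that also oxidises fatty acids, summed to 312 to 433 CPM in knockout LCWE hearts, 326 to 682 CPM in wild-type LCWE hearts, 335 to 397 CPM in knockout PBS hearts and 349 to 396 CPM in wild-type PBS hearts, with 0 of 4 called and 2 at an unadjusted p under 0.05. Cox8b and Cidea, which heart also expresses, made up nearly all of that sum. Cfd, which fat cells secrete, averaged 11.9 ± 17.7 TPM in knockout LCWE hearts (SD, n = 5), against 1.30 ± 1.16 TPM in knockout PBS hearts (n = 3), and did not pass. Cfd and Elovl3, both fat genes, were at 0 in some libraries, and no macrophage or fibroblast marker was. Adipoq, which defines fat cells, had 0 to 30 counts per library and Lep 0 in all of them.

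Lists of the fuel-burning steps downstream of the pathway held no called gene. Of 16 genes of the tricarboxylic acid cycle, which burns the acetyl-CoA made by oxidation, 0 passed in knockout hearts after LCWE and the median log2 fold was -0.08. Of 22 genes of the respiratory chain 0 passed, with a median of -0.03. The mean log2 CPM of the 33 genes minus that of the respiratory chain genes was -2.16 ± 0.273 in knockout LCWE hearts (SD, n = 5), -2.22 ± 0.264 in wild-type LCWE hearts (n = 6), -1.70 ± 0.265 in knockout PBS hearts (n = 3) and -2.09 ± 0.0812 in wild-type PBS hearts (n = 5). The difference ranged from -2.42 to -1.70 in knockout LCWE hearts, against -1.92 to -1.41 in knockout PBS hearts, so these groups overlapped.

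**Figure D4:**
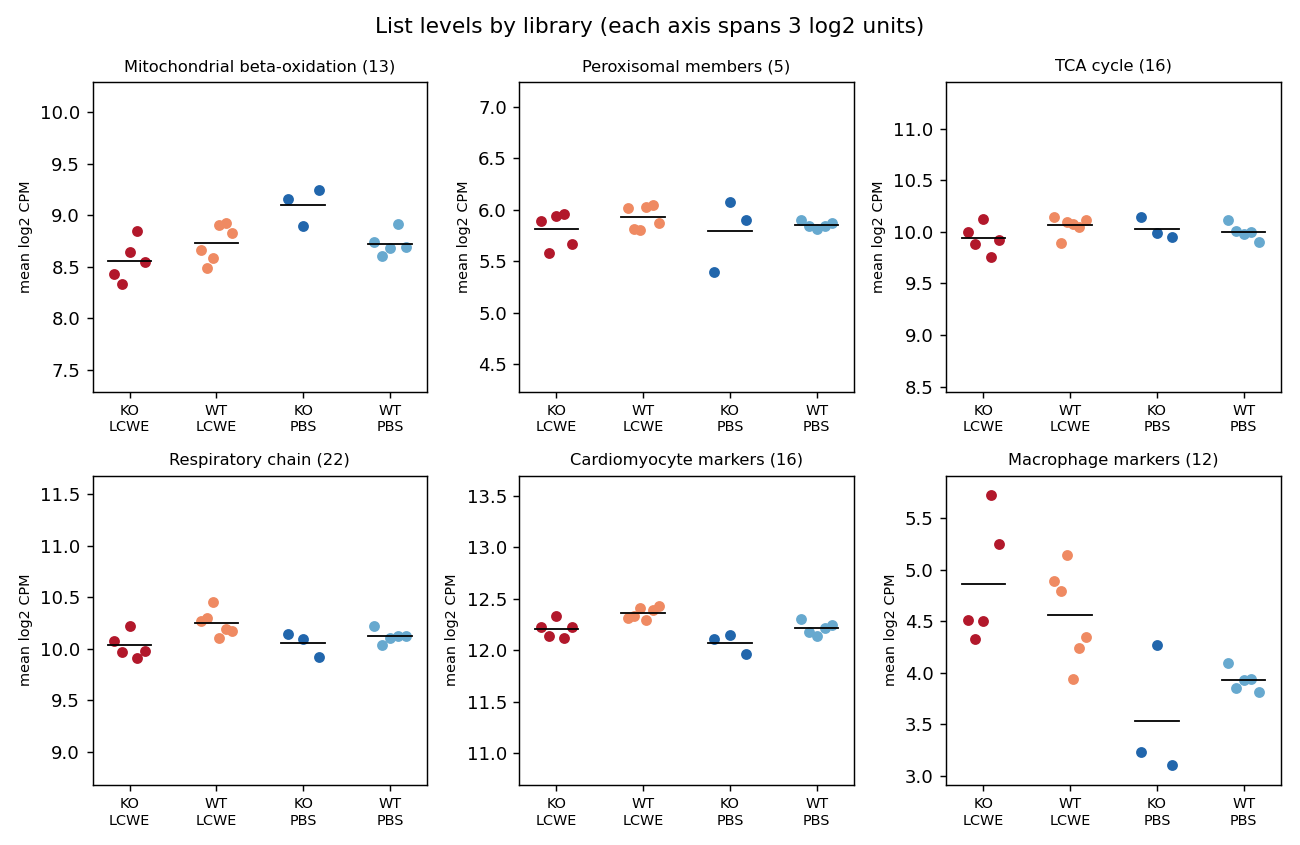
Mean log2 CPM of 6 gene lists in each library (points) with the group mean (line), the number of genes in brackets, and 3 log2 units on every axis. The 13 mitochondrial oxidation genes are highest in knockout PBS replicates 1 and 3 (9.16 and 9.24), the tricarboxylic acid cycle list runs from 9.76 to 10.14 and the respiratory chain list from 9.91 to 10.45, and the macrophage list is lowest in the same 2 knockout PBS libraries (3.23 and 3.10).

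In wild-type hearts no change after LCWE was detected beyond the spread between libraries. Of the 33 genes 0 passed (0%), and 0 of all tested genes did (0%). At an unadjusted p under 0.05 there was 1 gene of the pathway and 892 of all genes, and DESeq2 called 1 gene in all and 0 of the pathway. The median log2 fold of the 33 was 0.01. The genes with the smallest p were Etfb at 0.26 (SE 0.109, adjusted p = 0.772), Acot13 at 0.24 (SE 0.129, adjusted p = 0.789) and Fabp3 at 0.25 (SE 0.182, adjusted p = 0.866). Fabp3 had a lowest, median and highest level of 3515, 4228 and 5456 CPM in wild-type LCWE hearts, against 3600, 3178, 3428, 4338 and 3753 CPM in wild-type PBS hearts. Etfdh had 426, 544 and 615 CPM in wild-type LCWE hearts in the same order, against 576, 503, 517, 629 and 488 CPM in wild-type PBS hearts. Both genes overlapped between the groups. Wild-type groups that did not overlap were found in 0 of the 33 in either direction, against 0.259% of all tested genes lower after LCWE and 0.441% higher. For the 9 genes that fell in the knockout, the wild-type log2 folds ran from -0.04 to 0.25, and their 95% intervals together from -0.34 to 0.63.

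A fall in one genotype and not in the other is not by itself a difference between them, so the interaction was tested. It compares the LCWE fold in knockout hearts with that in wild-type hearts. No gene of the 33 passed, nor did any of all tested genes, and the lowest adjusted p of the pathway was 0.527. At an unadjusted p under 0.05 there were 14 of the 33, all with differences below 0, and 1145 of all 14301 tested genes. DESeq2 called 5 genes in all and 0 of the pathway. The median log2 difference was -0.51. The 9 genes that fell in the knockout had differences between -1.09 for Fabp3 (SE 0.283) and -0.51 for Etfa (SE 0.158). These 9 were picked by their knockout fold, which is part of the difference, so that choice favoured values below 0. The interaction uses the same knockout libraries as the comparison of LCWE in knockout hearts, so they are not separate evidence.

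Under PBS most of the genes lay higher in knockout than in wild-type hearts, but 0 passed. Of the 33, 29 had log2 folds above 0, against 7174 of all 14301 tested genes. The median was 0.31, against 0.00 over all tested genes. At an unadjusted p under 0.05 there were 16 of the 33 and 2817 of all tested genes. The 0 that passed stood against 0.524% of all tested genes that were higher in the knockout and 0.0769% that were lower. The smallest p belonged to Decr1 at 0.80 (SE 0.212, adjusted p = 0.0694), Eci1 at 0.47 (SE 0.125, adjusted p = 0.0694) and Eci2 at 0.54 (SE 0.148, adjusted p = 0.0747). Decr1 lay at 576, 365 and 645 CPM in knockout PBS hearts, against 302, 247, 302, 393 and 275 CPM in wild-type PBS hearts. Eci1 lay at 457, 302 and 429 CPM in knockout PBS hearts, against 289, 258, 282, 304 and 297 CPM in wild-type PBS hearts. Replicates 1 and 3 of the knockout lay above every wild-type library for both genes, and replicate 2 within the wild-type range. Eci2 showed the same pattern, at 279, 162 and 238 CPM in knockout PBS hearts, against 163, 141, 165, 163 and 144 CPM in wild-type PBS hearts. All knockout libraries lay above all wild-type ones in 2 genes, Fabp3 and Hadh, which is 6.06% of the pathway against 4.1% of all tested genes. They lay below all wild-type ones in 0 genes, against 3.62%. Without knockout PBS replicate 2, 14 genes passed (12 higher and 2 lower in the knockout), and without knockout LCWE replicate 4, 2 did. DESeq2 called 9 genes, all higher in the knockout. For these fits the matching shares of all tested genes are not given. A gain in the pathway is therefore not set apart from a general one. This comparison and that of LCWE in knockout hearts share the 3 knockout PBS libraries, so they are not separate evidence.

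Between the genotypes after LCWE, 28 of the 33 log2 folds were below 0, against 7048 of all 14301 tested genes. None of the 33 passed between knockout and wild type, against 0.00699% of all tested genes that were lower in the knockout, which is 1 gene. At an unadjusted p under 0.05 there were 4 of the 33 and 794 of all tested genes. DESeq2 also called 0 of the pathway and 8 genes in all. The median log2 fold was -0.13. The smallest p belonged to Cpt2 at -0.42 (SE 0.141, adjusted p = 0.804), Acot13 at -0.35 (SE 0.129, adjusted p = 0.833) and Acad11, a dehydrogenase of the acyl-CoA family, at -0.32 (SE 0.144, adjusted p = 0.876). Cpt2 lay at 177, 156.2, 210, 206 and 151 CPM in knockout LCWE hearts, against a lowest, median and highest level of 191, 242 and 318 CPM in wild-type LCWE hearts. The groups overlapped through knockout replicates 3 and 4. They overlapped in all 33 genes, where 0.364% of all tested genes lay lower without overlap in the knockout and 0.168% higher. Scaled to the cardiomyocyte markers in place of TMM, the median of the 33 was 0.01, where that of all tested genes was 0.15. The direction was not particular to the 33 genes. With TMM, 22 of 22 respiratory chain genes, 14 of 16 tricarboxylic acid cycle genes and 13 of 16 cardiomyocyte markers also had folds below 0. Their medians were -0.22, -0.13 and -0.13, with 7, 3 and 3 at an unadjusted p under 0.05, and 0 passed.

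**Figure D5:**
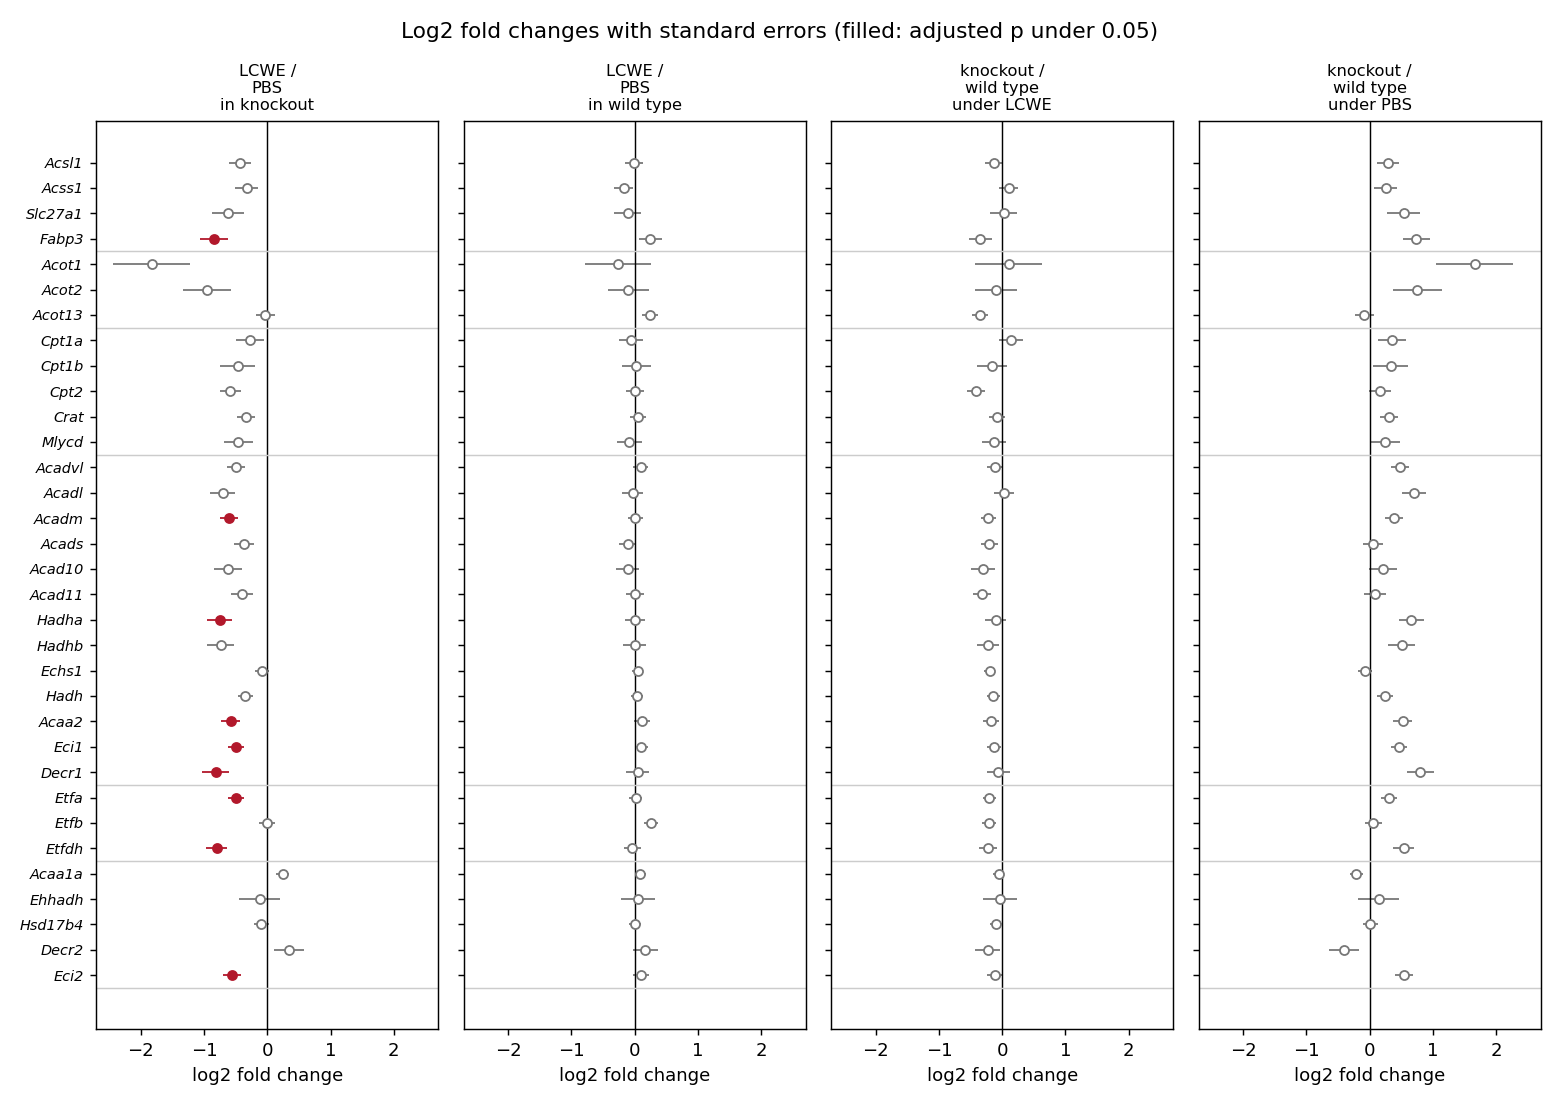
Log2 fold changes of the 33 genes, ordered by step from uptake at the top to peroxisomal at the bottom, in the 4 comparisons of 2 groups, with bars of 1 SE and filled points for adjusted p under 0.05. The 9 filled points all lie in the panel of LCWE against PBS in knockout, between -0.84 and -0.49, and most points of knockout against wild type under PBS lie to the right of 0.

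A wider list of 93 further genes of fatty acid handling was measured the same way, also chosen with earlier results known. In knockout hearts 5 of the 93 (5.38%, against 2.08% of all tested genes) fell after LCWE and 0 rose (against 0.818%), with a median log2 fold of -0.19, and 0 passed in any other comparison. The 5 were Slc25a20, the carrier that swaps acylcarnitine for carnitine across the inner mitochondrial membrane, at -0.64 (SE 0.149, adjusted p = 0.0346), Cd36, the fatty acid uptake receptor, at -0.84 (SE 0.208, adjusted p = 0.0402), the acyl-CoA synthetase Acsf2 at -1.02 (SE 0.256, adjusted p = 0.0416), Pnpla2, the lipase that opens stored triglyceride, at -1.11 (SE 0.280, adjusted p = 0.0418), and Plin5, which ties lipid droplets to mitochondria, at -0.87 (SE 0.232, adjusted p = 0.0461). Slc25a20 lay at 153, 131, 186, 215 and 150 CPM in knockout LCWE hearts, against 269, 205 and 307 CPM in knockout PBS hearts. Cd36 lay at 1253, 821, 1287, 1581 and 942 CPM in knockout LCWE hearts, against 2065, 1378 and 2884 CPM in knockout PBS hearts. As in the pathway itself, LCWE replicate 4 crossed PBS replicate 2 in both. Pnpla2 lay at 616, 344, 589, 854 and 493 CPM in knockout LCWE hearts, against 1967, 617 and 1175 CPM in knockout PBS hearts.

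Of 22 regulators of the pathway 0 passed after LCWE in knockout hearts, and the lowest adjusted p of edgeR's test was 0.0541. Their log2 folds were below 0 in 18 and above 0 in 4, with a median of -0.27. An unadjusted p under 0.05 was found in 7 of the 22, against 3347 of all 14301 tested genes. Ppara, the nuclear receptor PPAR-alpha, lay at 43.4, 73.7, 41.6, 71.4 and 100.1 CPM in knockout LCWE hearts, against 191, 83.5 and 75.6 CPM in knockout PBS hearts, with a log2 fold of -0.82 (SE 0.422). Ppargc1a, its coactivator, lay at 119, 68.7, 141, 92.4 and 122.7 CPM in knockout LCWE hearts, against 356, 119 and 90.3 CPM in knockout PBS hearts, with a log2 fold of -0.79 (SE 0.347). In both genes knockout PBS replicate 1 alone set the difference apart, and replicate 3, which was high in the enzymes, was not. Esrra, the estrogen-related receptor alpha, had a log2 fold of -0.13 (SE 0.102). Pdk4, the kinase that turns pyruvate away from oxidation and is induced by PPAR-alpha and fasting, did not follow the enzymes. It lay at 2845, 144, 2990, 2629 and 131 CPM in knockout LCWE hearts, against 256, 2688 and 1335 CPM in knockout PBS hearts. The libraries of each group spread widely and overlapped, with a log2 fold of 0.29 (SE 0.9754).

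The promoters of the 33 genes were searched for known motifs of such regulators. RefSeq promoter sequence (build GRCm38.p6) was at hand for 27 of the 33, and the 250 bases before the start were read on both strands. The estrogen-related receptor motif TCAAGGTCA was found in 0 of 27, and in 0.422% of the promoters of all genes. The PPAR motif, AGGTCA followed by 1 base and a second AGGTCA, was found exactly in 0 of 27, against 0.0407% of all, and with up to 2 mismatches in 2 of 27, against 3.72% of all. The NRF1 motif, GCGCA followed by its reverse complement, was found in 1 of 27, against 0.877% of all. Nuclear respiratory factor NRF1 controls many genes of mitochondria. The 3 matches are shown because Etfa and Etfdh were among the genes that fell, while Echs1, the short-chain enoyl-CoA hydratase, did not pass (log2 fold -0.08). Capitals mark the match, PPAR-like in the promoters of Echs1 and Etfa and NRF1 in that of Etfdh, where the palindrome reads the same on both strands. The sequences are from RefSeq, on the strand of the gene (minus in all 3).
Echs1, chr7:140116477-140116519: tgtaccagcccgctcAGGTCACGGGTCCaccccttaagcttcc
Etfa, chr9:55512293-55512335: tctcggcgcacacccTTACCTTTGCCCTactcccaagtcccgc
Etfdh, chr3:79628871-79628910: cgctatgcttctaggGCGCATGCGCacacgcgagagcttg
The match began 83 bases before the start in Echs1, 77 in Etfa, where it lies on the opposite strand of the gene, and 128 in Etfdh, counted from the RefSeq starts. From the outermost GENCODE M21 start of a protein-coding transcript the distances are 28, 77 and 32 bases, and the Etfdh match also lies in an exon of a retained-intron transcript of that gene. A match is a description of letters and no site of binding was measured.

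Counts of some of these genes cannot be kept apart from their neighbours or copies, since neither the counting rule nor its use of strand is known from the labels. Of all 50-base windows of its longest coding transcript, Cpt1b shares 93.0% with the readthrough gene Gm44502, which had 0 counts in every library. A counting rule that drops reads shared by 2 genes would understate Cpt1b, and its low level carries that limit. Etfb shares 67.3% with Gm45233 and Hadhb 61.5% with Gm13910. Fabp3 shares 29.2% with the pseudogene Fabp3-ps1. Acaa1a shares 34.0% with its copy Acaa1b, which had 1 to 141 counts per library. The neighbours Acot1 and Acot2 lie on chromosome 12 at 84009490 to 84018371 and 83987861 to 83993873 (GRCm38), and share 23.7% of the windows of Acot1 and 24.5% of those of Acot2, so that their separate values are uncertain. Of the 9 genes that fell, Acaa2, Decr1 and Etfdh share 0 windows with any other gene and Hadha shares 0.655%.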

How the data were processed

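Per the labels' protocols, mouse heart RNA was amplified as cDNA ahead of library construction, with a kit for whole transcriptomes. The authors deposited whole-number gene counts, not normalized, in 1 table of all 19 samples. Per the submitters' processing notes, STAR 2.7.8a, limma and the build GRCm38 were used, and the counter and its strand setting are unknown. Groups follow genotype and treatment in the labels, and 0 columns went unused.

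Low genes were removed by filterByExpr (at least 10 counts, total at least 15). With R 4.3.3 and edgeR 4.0.16, TMM factors and a robust quasi-likelihood fit of all 4 groups were used. The 5 contrasts were adjusted by Benjamini-Hochberg over 14301 genes at a threshold of 0.05. TPM used GENCODE M21 exon lengths. The genes named are those that passed, or else the 3 with the smallest p, with the highest of each step for level and a fixed set of regulators and targets, of which 1 is not reported here. Members and lists were chosen with earlier results of these data known. Alternatives used RLE factors, library totals, cardiomyocyte scaling, other filters, DESeq2 1.42.0, limma-voom (limma 3.58.1), sva 3.50.0, covariates, sample-number ranges and each library left out. The procedure was checked on simulated counts. No pair of libraries looked like a duplicate, with a lowest chi-square per gene of 6.85 over 14423 genes.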

Additional observations from a re-analysis of the deposited data

Results flagged for a closer look

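In groups of 4 to 6 libraries, each gene's highest and lowest library was set against the gap expected of 1 stray value at the 95% level (Dixon's criterion). Of 99 such groups 3 were marked, where chance marks about 1 in 20. In knockout LCWE hearts, replicate 4 had 644.5 CPM of the fatty acid transporter Slc27a1, and the next library 334 CPM. In wild-type PBS hearts, replicate 4 had 2009 CPM of Hadha and 1596 CPM of Hadhb, the subunits of the trifunctional protein, and the next libraries 1602 and 1192 CPM. Hadha and Hadhb are neighbours on chromosome 5, at 30118304 to 30155162 and 30155248 to 30184593 (GRCm38), on opposite strands. The groups of 3 knockout PBS libraries were too small for this criterion.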

How the results depend on the processing

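In knockout hearts after LCWE 9 genes passed in the fit described. The count was 3 with library totals or with no filter, 15 with DESeq2 or with cardiomyocyte scaling (which moved the median of all genes to -0.13), 1 with limma-voom and 17 with its library weights (16 lower, 1 higher). It was 0 with only the groups compared, with a covariate for the range of sample numbers and within numbers under 100, and 18 within numbers from 100 to under 200 (16 lower, 2 higher). Leaving out 1 library gave 0 to 17 (the 17 being 15 lower and 2 higher). Between knockout and wild type under PBS the count of 0 became 11 with cardiomyocyte scaling, 9 with DESeq2, 10 with library weights, 1 with the range covariate and 11 within numbers from 100 to under 200, and 0 to 14 leaving out 1 library. For the interaction it became 1 with library weights, 8 within numbers from 100 to under 200, and 0 to 10 leaving out 1 library. The cause of these shifts was not tested, and the matching shares of all tested genes are not given beside these counts. The other 2 comparisons gave 0 genes under every alternative run. In the range under 100, 10 of the 33 folds turned sign after LCWE in the knockout, among them that of Decr1 (0.024), and within 100 to under 200 Acad11 turned to 0.0023 between genotypes after LCWE, where it had not passed in the first place. No paired analysis was possible because the labels give no replicate numbers, and those used here follow the order of the samples.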
